A study of Mus musculus with 4 samples.

Results

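The 4 Hox gene clusters of the mouse were examined as 4 windows of the mm8 genome build, defined by position: Hoxa at chr6:52050001-52250000, Hoxb at chr11:96000001-96200000, Hoxc at chr15:102700001-102900000 and Hoxd at chr2:74400001-74650000. They were cut into 850 bins of 1 kb, of which 849 held a read in any library, against 2277148 such bins in the whole genome. The windows stand for 37 listed Hox genes. These are 10 of Hoxa (Hoxa2 to Hoxa13) and 9 each of Hoxb (Hoxb1 to Hoxb9), Hoxc (Hoxc4 to Hoxc13) and Hoxd (Hoxd1 to Hoxd13). Whether other genes lie in the windows was not examined. A gene annotation of mm8 was not used here, so bins are named by position, and the gene at a bin is not given. The order of the genes was read from a RefSeq table of a later build, GRCm38.p6, and was taken to hold on mm8. Along rising coordinates it runs from Hoxa2 to Hoxa13, from Hoxb9 to Hoxb1, from Hoxc13 to Hoxc4 and from Hoxd13 to Hoxd1.

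Histone H3 methylation was mapped by chromatin immunoprecipitation with sequencing (ChIP-seq) in embryonic fibroblasts of the mouse (MEF), the spindle-shaped cells that grow out of minced embryos, with antibodies against H3K4me3, H3K27me3 and H3K9me3. H3K9me3 was also mapped in secondary MEF. These were taken 13.5 days post coitum from chimeric embryos, made by injecting BDF2 blastocysts with induced pluripotent stem (iPS) cells that carry doxycycline-inducible Oct4, Klf4 and Sox2 and a selectable cassette at Oct4. The iPS cells had been derived with Wnt3a-conditioned medium, and fibroblasts descending from them were kept by a 48-hour selection in puromycin at 2 µg/ml. MEF were grown in 10% FBS and secondary MEF in 10% cosmic calf serum, and per the labels 1 lot of antibody served for H3K9me3 in both. The labels do not give the strain or embryonic age of the ordinary MEF, and name no doxycycline treatment. They give the 3 MEF libraries one run name and the secondary MEF library another, so cell source and run cannot be told apart.

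Each group held 1 library, so no comparison here has a replicate check or a test between conditions. The libraries held 12244567 (MEF H3K4me3), 9782554 (MEF H3K27me3), 8912337 (MEF H3K9me3) and 7985901 (secondary MEF H3K9me3) reads in bins, a mean of 5.38, 4.30, 3.91 and 3.51 reads in 1 kb. A level is the read number of a bin divided by the mean of its library (fold), and a bin is called at 3-fold or more. No input library was used here. Intervals are at the 95% level and cover counting error only.

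Hox genes encode homeodomain transcription factors that give cells of the embryo their position along the body axis. Within a cluster, genes at one end (low numbers) are switched on earlier and further to the front, and genes at the other end (high numbers) later and further to the back. Fibroblasts keep a memory of their place of origin in their Hox expression. The clusters are classic targets of 2 opposed systems: Polycomb repressive complex 2, which writes H3K27me3 and keeps Hox genes silent, and Trithorax-group methyltransferases, which write H3K4me3 at CpG-rich promoters and keep them active. H3K9me3 is the mark of a separate silencing system and is best known from heterochromatin and repeats.

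Hox promoters varied widely in CpG content, the sequence feature to which both systems are drawn. RefSeq promoters (GRCm38.p6) were at hand for 22 of the 37 genes, with 24 starts: 9 genes of Hoxa, 3 of Hoxb, 1 of Hoxc and 9 of Hoxd. In the 250 bases before the start the motif CG, which is the same on both strands, occurred 2 to 35 times, with a median of 12.5, against a median of 6 over all 32851 starts in the table. It occurred 10 or more times in 62.5% of the Hox starts and in 37.8% of all starts. The 2 ends of this range are shown with CG in capitals, 35 in Hoxa13 (chromosome 6, minus strand) and 2 at 1 of the 2 starts listed for Hoxd11 (chromosome 2, plus strand), whose other start had 20. Hoxa13 and Hoxd11 act in the limb and the hind part of the body.
Hoxa13: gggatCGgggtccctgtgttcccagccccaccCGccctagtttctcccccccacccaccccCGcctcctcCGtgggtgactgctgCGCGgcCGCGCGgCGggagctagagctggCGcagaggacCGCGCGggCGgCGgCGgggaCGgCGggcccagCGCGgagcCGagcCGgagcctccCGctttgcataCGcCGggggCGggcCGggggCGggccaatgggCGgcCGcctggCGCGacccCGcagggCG
Hoxd11: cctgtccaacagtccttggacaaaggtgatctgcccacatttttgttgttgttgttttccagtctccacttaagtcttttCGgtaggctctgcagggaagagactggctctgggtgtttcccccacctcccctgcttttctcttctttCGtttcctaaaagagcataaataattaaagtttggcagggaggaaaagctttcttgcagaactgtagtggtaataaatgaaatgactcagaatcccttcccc

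The clusters also hold microRNA genes, shown because their shared seeds tie one cluster to another. The seed, bases 2 to 8 of the mature RNA, is in capitals. Mir10a lies in Hoxb and Mir10b in Hoxd, and their 5p arms share the seed ACCCUGU. Mir196b lies in Hoxa between Hoxa9 and Hoxa10, Mir196a-1 in the Hoxb cluster before Hoxb9 and Mir196a-2 in Hoxc between Hoxc10 and Hoxc9, and their 5p arms share the seed AGGUAGU. Mir615 lies within Hoxc5. The miR-10 and miR-196 families are known to repress Hox messages, and levels of these RNAs were not measured in this study.
miR-10a-5p: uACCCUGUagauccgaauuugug
miR-10b-5p: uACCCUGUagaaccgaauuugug
miR-196a-5p: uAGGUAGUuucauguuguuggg
miR-196b-5p: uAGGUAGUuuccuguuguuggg
miR-615-3p: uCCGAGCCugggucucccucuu

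H3K27me3 covered most of the 4 windows and H3K4me3 a smaller part that lay almost wholly inside it. H3K27me3 was called in 554 of the 850 bins (65.2%), where 6.0% of all bins in the genome were called, and averaged 6.38-fold (6.30 to 6.46). H3K4me3 was called in 286 bins (33.6%), against 3.29% of all bins, and averaged 4.18-fold (4.12 to 4.24). By cluster, H3K27me3 was called in 130 of 200 bins of Hoxa, 166 of 200 of Hoxb, 143 of 200 of Hoxc and 115 of 250 of Hoxd, so Hoxb was the fullest and Hoxd the emptiest. H3K4me3 was called in 93, 72, 60 and 61 bins in the same order.

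The mean level ordered the clusters differently for the 2 marks. H3K27me3 averaged 8.09-fold (7.90 to 8.28) in Hoxb, 6.69-fold (6.52 to 6.87) in Hoxc, 6.44-fold (6.27 to 6.61) in Hoxa and 4.72-fold (4.60 to 4.86) in Hoxd. The intervals of Hoxc and Hoxa overlapped. H3K4me3 averaged 7.05-fold (6.89 to 7.21) in Hoxa, 3.996-fold (3.88 to 4.12) in Hoxb, 3.25-fold (3.14 to 3.35) in Hoxc and 2.77-fold (2.68 to 2.86) in Hoxd, and none of these intervals overlapped. Among 13136 other windows of 200 kb placed end to end, 1 had as high a mean H3K27me3 as Hoxb, 6 as Hoxc and 7 as Hoxa. Among 10507 windows of 250 kb, 24 were as high as Hoxd. For H3K4me3 the counts were 27 for Hoxa, 277 for Hoxb, 508 for Hoxc and 571 for Hoxd, so the clusters stood further out for H3K27me3 than for H3K4me3.

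**Figure D1:**
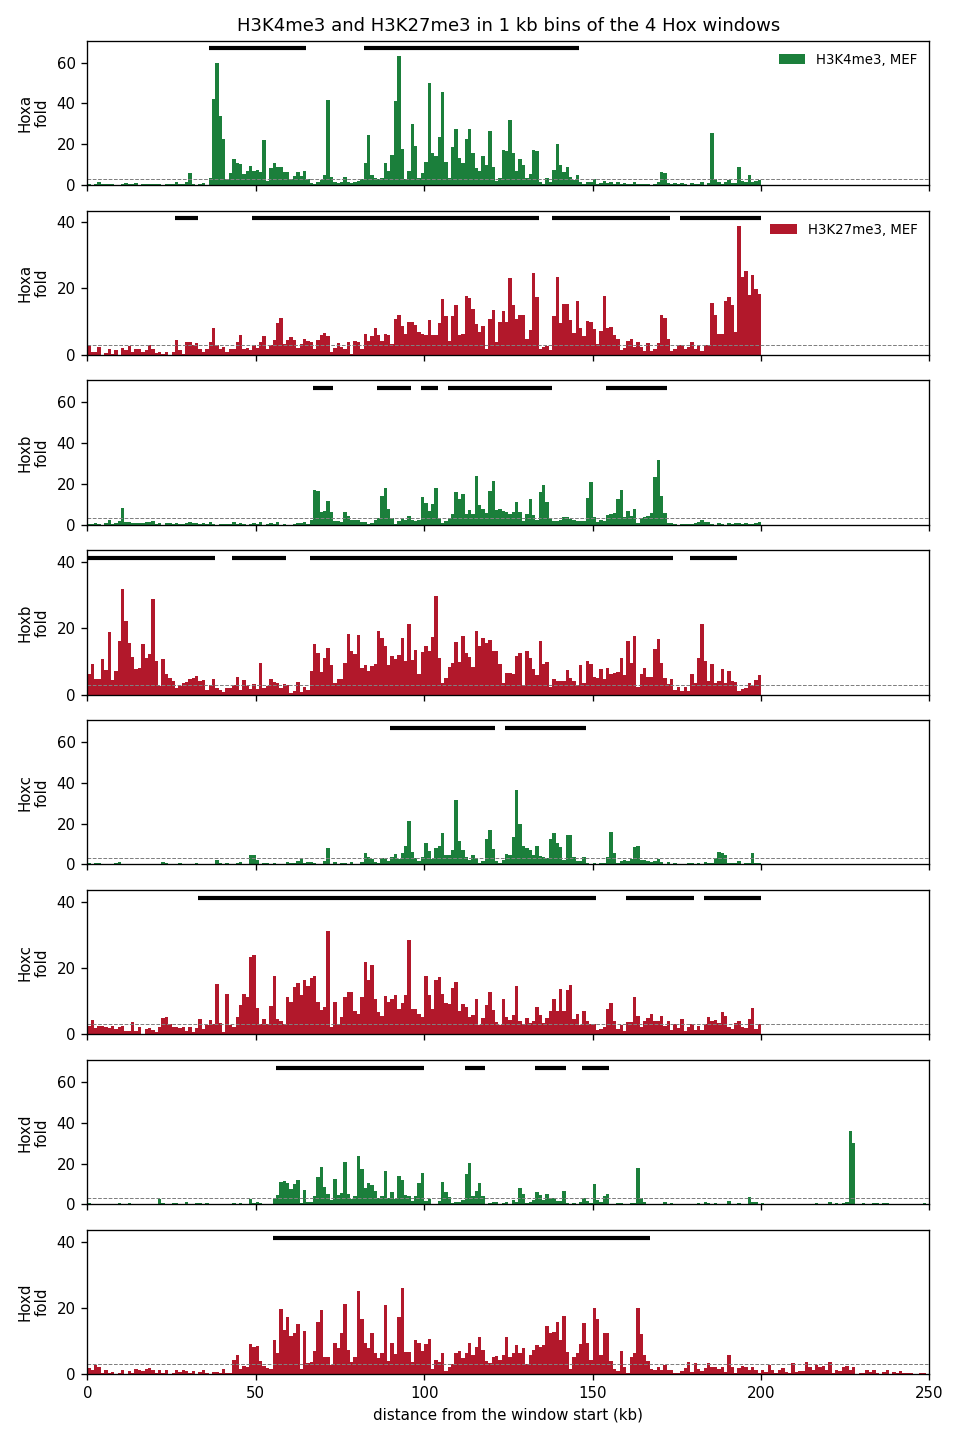
H3K4me3 (green) and H3K27me3 (red) in MEF as fold over the library mean in 1 kb bins (bars) against distance from the window start in kb, 1 pair of rows per cluster; the dashed line is 3-fold, black bars are blocks of 5 kb or more, and the Hoxd window is 250 kb long and the others 200 kb. Hoxa is split between an H3K4me3-rich side and an H3K27me3-rich side, and Hoxd has an H3K4me3 peak of 35.9-fold far outside its H3K27me3 block.

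The bins fell into 4 states. Both marks were called in 265 bins (31.2% of the windows, against 0.870% of all bins), H3K27me3 only in 289, H3K4me3 only in 21 and neither in 275. Of the H3K4me3 bins 92.7% were also called for H3K27me3, against 26.2% in the rest of the genome. The shares of all bins called for H3K27me3 were 65.2% and 5.98%, so much of this overlap goes with the wide cover of H3K27me3. All 60 H3K4me3 bins of Hoxc and 71 of the 72 of Hoxb were called for both, where 71.5% and 83% of all their bins were called for H3K27me3. In Hoxa 15 of 93 had H3K4me3 only, and in Hoxd 5 of 61. Conversely, 47.8% of the H3K27me3 bins were called for H3K4me3, against 14.4% in the rest of the genome, where the shares of all bins were 33.6% and 3.28%. In bins called for both, H3K4me3 averaged 10.6-fold and H3K27me3 10.9-fold in the clusters, while in the rest of the genome such bins averaged 21.5-fold and 7.72-fold. Bins called in both libraries need not carry both marks on the same chromosomes or in the same cells, and mixed cells were not told apart here.

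**Figure D2:**
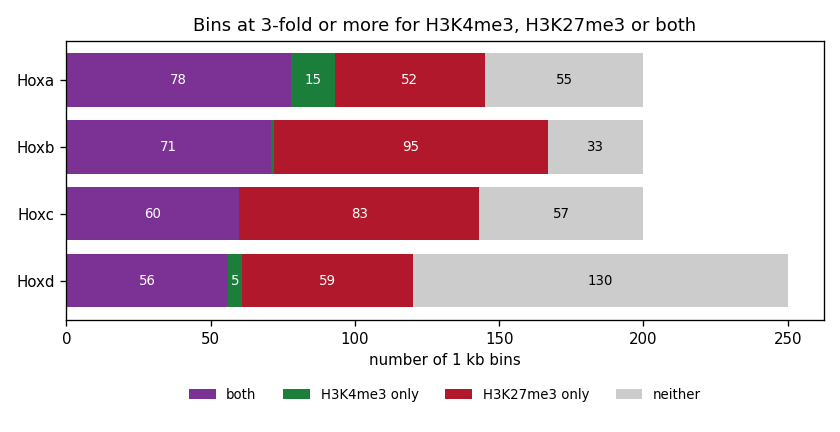
Number of 1 kb bins (horizontal axis) in each window called at 3-fold or more for both H3K4me3 and H3K27me3, for 1 of them or for neither; Hoxd has 250 bins and the others 200. Bins with H3K4me3 only number 15 in Hoxa, 1 in Hoxb, 0 in Hoxc and 5 in Hoxd.

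Blocks were made by joining called bins across up to 2 uncalled ones and keeping runs of 5 kb or more. Where the number of genome blocks as long as a given block is stated, that block itself is counted. H3K27me3 formed 12 blocks of 594 kb in all, and 1 block in each cluster was 85 kb or longer, where the median of 9168 blocks in the genome was 8 kb. H3K4me3 formed 13 blocks of 285 kb in all, where the median of 4062 blocks was 6 kb. In the 85 kb H3K27me3 block of Hoxa 6 of the 12 uncalled bins were called for H3K4me3, where 67 of all its 85 bins were. In the longest blocks of Hoxb, Hoxc and Hoxd this held for 1 of 2, 0 of 9 and 2 of 10 uncalled bins. In the shorter H3K27me3 blocks it held for none.

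Hoxa was the cluster with the most H3K4me3, and its 2 marks changed places along the window. On the Hoxa2 side the H3K4me3 block at chr6:52086001-52115000 (29 kb) averaged 11.8-fold (11.3 to 12.4), with H3K27me3 at 3.77-fold (3.44 to 4.13). The 16 kb at chr6:52083001-52099000, between 2 H3K27me3 blocks, had H3K4me3 at 14.1-fold (13.4 to 14.95) and H3K27me3 at 2.65-fold (2.28 to 3.06). This was the longest gap between H3K27me3 blocks in the windows. A smaller H3K27me3 block of 7 kb, chr6:52076001-52083000, lay just before it at 2.86-fold (2.29 to 3.53).

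The middle of Hoxa carried both marks. The H3K4me3 block at chr6:52132001-52196000 spanned 64 kb at 13.7-fold (13.4 to 14.1), and 3 of the 4062 H3K4me3 blocks of the genome were as long. It lay largely within the H3K27me3 block at chr6:52099001-52184000 (85 kb, 7.41-fold, 7.13 to 7.69). The highest H3K4me3 bin of all windows, chr6:52142001-52143000, held 340 reads (63.2-fold, 56.7 to 70.3), and H3K27me3 stood there at 12.1-fold. The bin with the highest smaller fold of both, chr6:52175001-52176000, stood at 32.0-fold for H3K4me3 and 23.0-fold for H3K27me3.

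On the Hoxa13 side mean H3K27me3 was above mean H3K4me3. Blocks at chr6:52188001-52223000 (35 kb, 7.56-fold) and from chr6:52226001 to the window's end (24 kb, 11.9-fold) had H3K4me3 at 2.73-fold and 2.53-fold. The 64 kb H3K4me3 block reaches into the former, in which H3K4me3 was called in 9 bins, up to 20.1-fold, and in the latter it was called in 3 bins, up to 25.5-fold. The latter ran on 8 kb beyond the window. It held the highest H3K27me3 bin of all windows, chr6:52243001-52244000, with 167 reads (38.9-fold, 33.2 to 45.2) and H3K4me3 at 8.55-fold. Between the middle and this side, 4 kb at chr6:52184001-52188000 were low in all 4 libraries, at 1.63-fold for H3K4me3, 2.04-fold for H3K27me3, 0.703-fold for MEF H3K9me3 and 0.713-fold for secondary MEF H3K9me3. No two-location read position fell in these 4 kb.

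Hoxb had the widest cover of H3K27me3, with 176 of 200 kb in 4 blocks. The main block, chr11:96066001-96174000, spanned 108 kb at 9.97-fold (9.69 to 10.3), and 23 of the 9168 blocks of the genome were as long. All 5 H3K4me3 blocks lay inside it: 6 kb at chr11:96067001-96073000 (10.7-fold), 10 kb at chr11:96086001-96096000 (5.77-fold), 5 kb at chr11:96099001-96104000 (11.7-fold), 31 kb at chr11:96107001-96138000 (9.29-fold) and 18 kb at chr11:96154001-96172000 (8.84-fold). H3K4me3 was thus broken into separate runs where H3K27me3 was continuous. In these blocks H3K27me3 averaged between 8.88-fold and 17.6-fold, so no H3K4me3 block of Hoxb was poor in H3K27me3.

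The ends of the Hoxb main block were sharp for H3K4me3. Over 10 kb either side of position 96172000 H3K4me3 fell from 9.95-fold (9.12 to 10.8) to 0.446-fold (0.286 to 0.664). Over the same length its largest rising step, at 96062000, went from 0.298-fold to 6.27-fold. That position lay before the rise itself. The bins from 96062001 to 96067000 were all under 3-fold, and the next bin, chr11:96067001-96068000, stood at 17.1-fold. H3K27me3 rose at 96066000 from 2.12-fold (1.71 to 2.60) to 8.80-fold (7.93 to 9.73). The highest H3K4me3 bin, chr11:96169001-96170000, lay beside the end near Hoxb1 at 31.6-fold (27.04 to 36.7), with H3K27me3 at 16.8-fold. The bin with the highest smaller fold, chr11:96115001-96116000, had 23.8-fold and 19.1-fold.

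Outside the main block, Hoxb had H3K27me3 blocks with little H3K4me3 on both sides. Before it, on the side of Hoxb9, 38 kb at chr11:96000001-96038000 stood at 8.88-fold (8.43 to 9.35) for H3K27me3 and 0.940-fold (0.811 to 1.08) for H3K4me3. That block began 21 kb before the window and was 59 kb long in all. It held the highest H3K27me3 bin of Hoxb, chr11:96010001-96011000, at 31.9-fold (26.8 to 37.7), which at 7.997-fold was also its 1 bin called for H3K4me3. Within the block H3K27me3 stepped down at 96020000 from 16.4-fold to 5.07-fold. A weaker block followed at chr11:96043001-96059000 (16 kb, 3.42-fold, H3K4me3 0.4998-fold). After the main block, chr11:96179001-96193000 (14 kb) stood at 7.05-fold with H3K4me3 at 0.677-fold.

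Hoxc had the longest H3K27me3 block of the 4 windows and the cleanest division within it. The block at chr15:102733001-102851000 spanned 118 kb at 9.18-fold (8.92 to 9.45), and 15 blocks of the genome were as long. In its 39 kb on the Hoxc13 side, chr15:102733001-102772000, H3K27me3 averaged 9.75-fold (9.29 to 10.2) and H3K4me3 1.13-fold (0.986 to 1.28), with 34 and 3 of the bins called. In its 40 kb on the Hoxc4 side, chr15:102811001-102851000, the marks were near level at 6.79-fold and 7.14-fold, with 37 and 28 bins called. The highest H3K27me3 bin, chr15:102771001-102772000, reached 31.2-fold (26.1 to 36.9), with H3K4me3 at 8.18-fold.

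H3K4me3 in Hoxc began well inside the H3K27me3 block. Its blocks were at chr15:102790001-102821000 (31 kb, 7.52-fold) and chr15:102824001-102848000 (24 kb, 9.10-fold), with H3K27me3 at 10.4-fold and 6.99-fold. At the largest rising step, 102782000, it went from 0.595-fold to 3.03-fold, while the largest rise of H3K27me3 was at 102738000, from 2.49-fold to 7.43-fold. With 10 kb on either side both marks had their largest fall at the same position, 102844000. H3K4me3 fell from 8.98-fold (8.20 to 9.82) to 1.45-fold (1.15 to 1.81) and H3K27me3 from 8.87-fold (8.001 to 9.81) to 3.68-fold (3.13 to 4.30). The position was not shared at other lengths. With 5 kb on either side the first base after the fall was 102848001 for H3K4me3 and 102750001 for H3K27me3, and with 20 kb 102866001 and 102813001. The highest H3K4me3 bin, chr15:102827001-102828000, stood at 36.6-fold with H3K27me3 at 14.7-fold, and the highest smaller fold was at chr15:102795001-102796000 (21.6-fold and 28.6-fold). Past the main block, weaker H3K27me3 blocks at chr15:102860001-102880000 (20 kb, 3.96-fold) and from 102883001 (17 kb to the window's end, 3.85-fold) had H3K4me3 at 2.02-fold and 2.09-fold.

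Hoxd held a single H3K27me3 block. It lay at chr2:74455001-74567000, 112 kb at 8.68-fold (8.42 to 8.94), and 21 blocks of the genome were as long. H3K27me3 rose at 74442000, before the block's start, from 0.605-fold (0.395 to 0.887) to 4.73-fold (4.10 to 5.42). The segment at chr2:74440001-74450000, outside the block, stood at 3.65-fold (3.11 to 4.27). H3K27me3 fell at 74567000, the block's end, from 6.40-fold (5.67 to 7.20) to 1.37-fold (1.05 to 1.77). The highest H3K27me3 bin, chr2:74493001-74494000, reached 26.1-fold (21.5 to 31.4), with H3K4me3 at 12.1-fold. Of the 250 bins of the window 130 were called for neither mark.

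Within the Hoxd block H3K4me3 was highest on the Hoxd13 side. The block at chr2:74456001-74500000 (44 kb) averaged 8.20-fold (7.83 to 8.57), with H3K27me3 at 10.4-fold, and 10 H3K4me3 blocks of the genome were as long. Shorter blocks followed at chr2:74512001-74518000 (6 kb, 9.95-fold), chr2:74533001-74542000 (9 kb, 3.82-fold) and chr2:74547001-74555000 (8 kb, 3.53-fold), the last 2 with H3K27me3 at 12.1-fold and 12.2-fold. Over the last 38 kb of the H3K27me3 block, chr2:74529001-74567000, H3K27me3 kept a mean of 8.67-fold (8.22 to 9.13) with H3K4me3 at 2.64-fold (2.42 to 2.88). The bin with the highest smaller fold, chr2:74480001-74481000, had 23.6-fold and 25.1-fold.

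The highest H3K4me3 bin of the Hoxd window stood apart from the cluster's block. At chr2:74626001-74627000 it held 193 reads (35.9-fold, 31.0 to 41.3), while H3K27me3 had 5 reads (1.16-fold, 0.378 to 2.72). The largest rising and falling steps of H3K4me3 in this window, at 74618000 and 74635000, belong to this peak and not to the Hoxd block. The bin just past 74628000 was the only one of the 850 with no read in any library.

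H3K4me3 relative to H3K27me3 varied along each cluster. In 10 kb segments, the fold of H3K4me3 over that of H3K27me3 in Hoxa was 0.355 at the window's start, 4.65 at 52080001 and 0.124 at 52240001, toward Hoxa13. In Hoxc it was 0.0803 at 102760001, on the Hoxc13 side, 1.64 at 102820001 and 0.220 at 102870001, past the main block. In Hoxb it was 0.0809 at 96000001, on the Hoxb9 side, 0.934 at 96120001 and 0.0936 at 96180001, past the main block. It was thus low on both sides of the main block of Hoxb. In Hoxd it was 0.158 at 74440001, before the H3K27me3 block, and within the block 0.885 at 74470001, 0.933 at 74510001 and 0.205 at 74540001. H3K4me3 exceeded H3K27me3 on this scale in 9 of 20 segments of Hoxa, 0 of 20 of Hoxb, 2 of 20 of Hoxc and 1 of 25 of Hoxd, the last being the segment with the separate peak. Each mark is scaled to its own library, so this quotient orders positions and does not give amounts of the marks.

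Border positions held to different degrees. When steps were taken over 5 kb in place of 10 kb, 5 of the 16 largest steps stayed within 2 kb, and over 20 kb 8 did. Both H3K4me3 steps of Hoxb and both H3K27me3 steps of Hoxd stayed within 2 kb under either length. Elsewhere several steps compete, and the position given depends on the length over which it is sought.

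H3K9me3 in the Hox windows was called mostly in bins also called for H3K27me3. In MEF it was called in 288 of 850 bins (33.9%, against 4.22% of all bins), averaging 2.51-fold (2.46 to 2.57), and in secondary MEF in 207 bins (24.4%, against 4.21%), averaging 2.16-fold (2.10 to 2.21). Of the called bins 95.8% in MEF and 94.7% in secondary MEF were also called for H3K27me3, against 47.0% and 28.9% in the rest of the genome. H3K27me3 was called in 65.2% of all bins of the windows and 5.98% of those elsewhere, so a large overlap is to be had here from its cover alone. Both libraries called 158 bins, where 1.39% of all bins were called in both: these are 54.9% of those called in MEF and 76.3% of those called in secondary MEF. In H3K27me3 bins H3K9me3 averaged 3.21-fold (3.14 to 3.29) in MEF and 2.79-fold (2.71 to 2.86) in secondary MEF. In the other bins it averaged 1.19-fold and 0.978-fold. It was called in 61.5% (MEF) and 52.8% (secondary MEF) of bins with both H3K4me3 and H3K27me3. With H3K27me3 only these shares were 39.1% and 19.4%, and in the 21 bins with H3K4me3 only 14.3% and 38.1%. Secondary MEF H3K9me3 averaged 2.42-fold (2.07 to 2.80) with H3K4me3 only and 2.04-fold (1.95 to 2.13) with H3K27me3 only, with overlapping intervals. Among other windows of the same length, 26 had as high a mean of MEF H3K9me3 as Hoxa, 9 as Hoxb, 66 as Hoxc and 313 as Hoxd, and for secondary MEF 44, 241, 426 and 696 did. The highest MEF bin of the windows, chr11:96010001-96011000, reached 10.7-fold (7.73 to 14.5), and it was also the highest H3K27me3 bin of Hoxb.

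MEF H3K9me3 went up with H3K27me3 step by step. In bins with H3K27me3 under 1-fold it averaged 0.759-fold, at 1 to 3-fold 1.40, at 3 to 5-fold 1.99, at 5 to 10-fold 2.81, at 10 to 20-fold 4.37 and at 20-fold or more 6.75. Bins of the rest of the genome at the same H3K27me3 levels averaged 0.662, 1.52, 2.29, 3.03, 4.68 and 10.7-fold. From 1-fold upward the Hox bins thus had less MEF H3K9me3 than other bins at the same H3K27me3 level, by more than counting error, although bins at 20-fold or more also had a lower mean H3K27me3 (24.9-fold against 28.1-fold). Secondary MEF H3K9me3 in the Hox bins was lower than elsewhere at 1 to 3-fold (1.10 against 1.49), 3 to 5-fold (1.62 against 2.00) and 20-fold or more (5.99 against 9.06). At 5 to 10-fold it was higher (2.47, 2.36 to 2.59, against 2.31), as at 10 to 20-fold (3.83, 3.67 to 3.99, against 3.52). Across the 850 bins MEF H3K9me3 had a Spearman rho of 0.794 with H3K27me3 and 0.567 with H3K4me3. For secondary MEF H3K9me3 these were 0.727 and 0.652. In Hoxa alone its rho was higher with H3K4me3 (0.714) than with H3K27me3 (0.662). The bins share libraries and sequence coverage and are not independent. The cause of the shared signal was not tested.

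The 2 H3K9me3 libraries differed in Hoxb, Hoxc and Hoxd more than over the chromosomes that carry them, and in Hoxa as a whole they did not. The share of reads in the windows was 0.859 times as high in secondary MEF as in MEF (0.831 to 0.888), while over whole chromosomes 6, 11, 15 and 2 this ratio was 1.01, 0.984, 1.03 and 0.973. It was 0.740 in Hoxb (0.693 to 0.789), 0.809 in Hoxc (0.755 to 0.867), 0.871 in Hoxd (0.814 to 0.931) and 1.03 in Hoxa (0.964 to 1.09). The interval of Hoxa held 1 and did not overlap the others. Of 85 segments of 10 kb, the ratio's interval lay above 1 in 4, all in Hoxa, and below 1 in 26, where 7.94% and 7.99% of segments in the genome with 20 or more reads did so. The Hox segments hold more reads than most, which narrows their intervals.

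**Figure D3:**
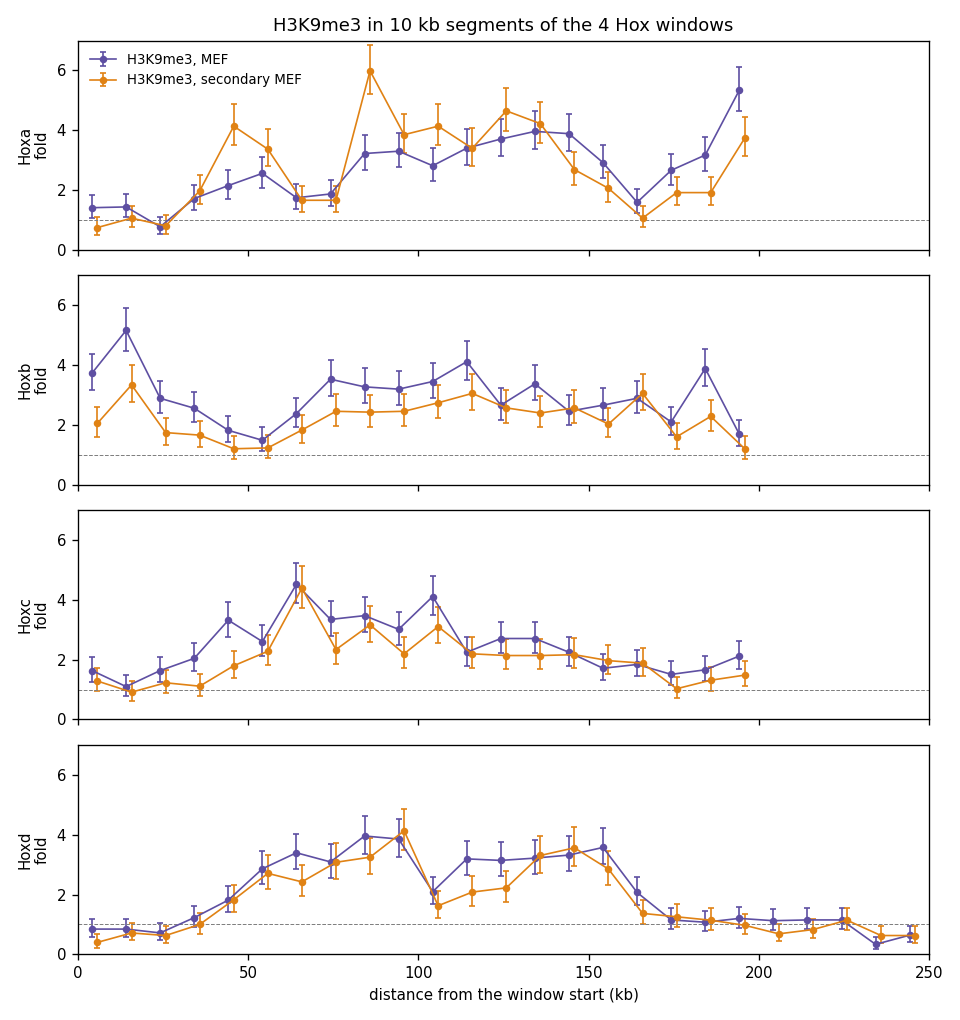
H3K9me3 in MEF (purple) and secondary MEF (orange) as fold over each library's mean in 10 kb segments against distance from the window start in kb, with 95% Poisson intervals; points are offset sideways for legibility and the dashed line is the library mean. In Hoxb the secondary MEF library is mostly lower, and in Hoxa it is higher in part of the window and lower toward the end.

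In Hoxa the secondary MEF library was higher in 4 segments and lower in 6 of 20. The 4 higher ones lay in the H3K4me3-rich part, and the lower ones were 5 on the Hoxa13 side and 1 at the window's start, chr6:52050001-52060000, with 26 reads against 55 in MEF (ratio 0.528, 0.318 to 0.856). It was higher at chr6:52090001-52100000, with 145 reads against 84 in MEF (ratio 1.93, 1.46 to 2.55), and at chr6:52130001-52140000, with 210 against 126 (1.86, 1.48 to 2.34). The highest secondary MEF bin of all windows, chr6:52182001-52183000, had 54 reads (15.4-fold, 11.6 to 20.1), where MEF had 32 (8.18-fold, 5.59 to 11.5). On the Hoxa13 side, at chr6:52240001-52250000, the highest MEF segment of Hoxa, secondary MEF had 131 reads against 209 (0.700, 0.558 to 0.874). The highest MEF bin of Hoxa, chr6:52243001-52244000, had 37 reads in MEF (9.45-fold) and 18 in secondary MEF (5.13-fold). Secondary MEF H3K9me3 formed a block of 52 kb at chr6:52132001-52184000, and 9 blocks of that library in the genome were as long. In these 52 kb H3K9me3 was called in 35 bins in secondary MEF and in 28 in MEF. The MEF bins there formed blocks of 16, 13 and 11 kb, parted by uncalled bins that the gap rule did not join. The longest MEF H3K9me3 block within the Hoxa window was 18 kb. A MEF block that ran 8 kb past the window's end was 23 kb long in all.

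In Hoxb no segment was higher in secondary MEF and 10 of 20 were lower. At chr11:96000001-96010000 there were 72 reads against 146 (0.550, 0.409 to 0.735), and at chr11:96010001-96020000 117 against 202 (0.646, 0.510 to 0.816), both within the H3K27me3 block that had 1 H3K4me3 bin. MEF H3K9me3 formed a run of 58 kb there, from before the window's start to 96037000, and 5 MEF H3K9me3 blocks in the genome were as long. Its highest secondary MEF bin, chr11:96109001-96110000, lay in the main block at 6.84-fold, with MEF at 3.83-fold.

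In Hoxc 5 of 20 segments were lower and in Hoxd 5 of 25, and none was higher. The lowest ratio in Hoxc was at chr15:102740001-102750000, with 63 reads against 130 (0.541, 0.394 to 0.736). Its highest bins, chr15:102782001-102783000 in MEF (7.92-fold) and chr15:102765001-102766000 in secondary MEF (6.27-fold), stood at 5.39-fold and 1.30-fold for H3K4me3. In Hoxd the highest MEF bin, chr2:74476001-74477000, stood at 9.20-fold and at 9.41-fold in secondary MEF, and H3K4me3 (20.6-fold) and H3K27me3 (21.2-fold) were high there too. The highest secondary MEF bin, chr2:74550001-74551000, had 35 reads (9.98-fold, 6.95 to 13.9) against 22 in MEF (5.62-fold, 3.52 to 8.51), and these intervals overlapped. At the separate H3K4me3 peak of Hoxd, secondary MEF H3K9me3 had 15 reads (4.28-fold) and MEF H3K9me3 7 (1.79-fold), with overlapping intervals.

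The ratio of the H3K9me3 libraries followed the H3K4me3 state of MEF. It was 0.740 (0.699 to 0.782) in bins with H3K27me3 only, 0.758 (0.693 to 0.828) with neither mark, 0.970 (0.926 to 1.02) with both and 1.32 (1.05 to 1.65) with H3K4me3 only. The rest of the genome gave 0.771, 1.01, 1.07 and 1.43, so the bins with neither mark departed most from it. In Hoxa the ratio was 1.21 (1.11 to 1.31) in bins with both marks and 0.720 (0.631 to 0.821) with H3K27me3 only. Bins with both marks gave 0.814 (0.739 to 0.896) in Hoxb, 0.861 (0.772 to 0.959) in Hoxc and 0.935 (0.849 to 1.03) in Hoxd. With H3K27me3 only these clusters gave 0.687 (0.624 to 0.757), 0.781 (0.703 to 0.868) and 0.799 (0.701 to 0.909). The intervals of these 2 states overlapped in Hoxb, Hoxc and Hoxd but not in Hoxa. Hoxa also held 15 of the 21 bins with H3K4me3 only. In bins not called for H3K4me3 the ratio was 0.723 (0.648 to 0.806) in Hoxa and 0.684, 0.776 and 0.804 in Hoxb, Hoxc and Hoxd, so Hoxa then lay with the others. The other 2 marks were not analysed here in secondary MEF, and the part of the run, the cell source or the H3K4me3 level in these ratios was not tested.

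**Figure D4:**
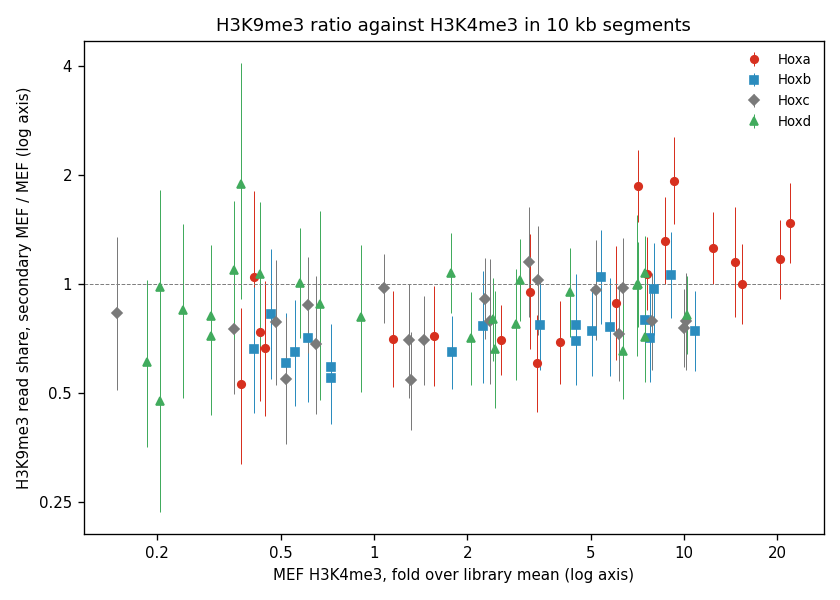
Ratio of H3K9me3 read shares, secondary MEF over MEF, in 85 segments of 10 kb (log axis, 95% Clopper-Pearson intervals) against MEF H3K4me3 as fold over the library mean (log axis), by cluster; the dashed line is a ratio of 1. Across the segments Spearman's rho was 0.363, and it was 0.710 in Hoxa (20 segments), 0.549 in Hoxb (20), 0.272 in Hoxc (20) and 0.0796 in Hoxd (25), as a description of segments that share libraries.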

How the data were processed

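ChIP-seq reads of 4 libraries, 1 per group, were analysed. The deposited values are other than a level: signed mm8 positions of aligned reads, not normalised, a minus sign marking the minus strand. The authors aligned, per the file headers, with Bowtie (-e 70, -k 2, -m 2, -n 2, -l 36, --best, --concise; version not given in the sources used here) and listed reads with 1 and with 2 locations apart. Removal of repeated reads was not stated, so PCR copies may be counted.

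Reads with 1 location were placed 75 bp downstream of their 5′ end, with minus-strand positions taken as the leftmost base of a 36-base read, and counted in 1 kb bins of chromosomes 1 to 19, X and Y. The mean was taken over 2277148 bins with a read in any library. Bins at 3-fold or more needed 17 reads (MEF H3K4me3), 13 (MEF H3K27me3), 12 (MEF H3K9me3) and 11 (secondary MEF H3K9me3). In the Hox windows 61, 90, 191 and 123 bins lay at 2-fold to under 3-fold, and 43, 97, 129 and 107 at 3-fold to under 4-fold, in the same order.

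Fold intervals are exact Poisson and ratio intervals Clopper-Pearson, at the 95% level, and cover counting error only. The rules were tested on simulated counts. Python 3.11.15, NumPy 2.4.6, SciPy 1.17.1 and pandas 2.3.3 were used. Windows, genes and rules were chosen with earlier results of these data known. Named features are, per window, the highest bin of each library, the bin with the highest smaller fold of H3K4me3 and H3K27me3, every block of these marks and their largest steps, and the promoters with most and fewest CpG. The alternatives were other thresholds, gaps, scalings and step lengths, one read per position, no shift, and two-location reads at a weight of 0.5. With no mm8 gene models used here, the planned counts at gene starts and over Polycomb and Trithorax genes were not made.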

Additional observations from a re-analysis of the deposited data

How the results depend on the processing

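The windows hold 1 library per group and the labels give no replicate numbers. No paired analysis was possible because each group has 1 sample. Counts of H3K9me3 bins moved with the threshold: at 2-fold, at 5-fold, and at 2-fold with an adjusted Poisson value under 0.001, the MEF count was 479, 76 and 190 and the secondary MEF count 330, 64 and 100. H3K4me3 blocks came to 185 kb with no gap joined. The H3K9me3 ratio over all windows was 0.745 in bins not called for H3K4me3, and that of Hoxa reversed to 0.723. With the library mean taken over all bins up to the last read, mean folds were 4.83 (H3K4me3), 7.37 (H3K27me3) and, in H3K27me3 bins, 3.66 (MEF H3K9me3) and 3.17 (secondary MEF H3K9me3), and with one read per position H3K4me3 averaged 4.31. Of the 16 borders 5 stayed within 2 kb with 5 kb on either side and 8 with 20 kb. The causes of these shifts were not tested. The other 48 recomputed values over the 4 windows together stayed within 1.5 times for a count or length, or within the interval of the value reported. For single clusters and borders 52 recomputed values moved beyond this and 171 did not. H3K4me3 blocks went from 55 to 27 kb in Hoxc and from 67 to 30 kb in Hoxd with no gap joined, and to 35 and 39 kb at 5-fold. H3K27me3 blocks of Hoxa went from 151 to 95 kb with no gap joined and to 91 kb at 5-fold, and those of Hoxc from 155 to 97 kb at 5-fold, where 95 of its 143 H3K27me3 bins and 34 of its 60 bins with both marks were called.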
